A study of Mus musculus with 9 samples.

Results

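The messages of 6 genes of the DNA methylation machinery were followed in mouse embryonic stem cells (ESCs), namely the maintenance methyltransferase *Dnmt1*, its recruiter *Uhrf1* and the related *Uhrf2*, the de novo methyltransferases *Dnmt3a* and *Dnmt3b*, and their cofactor *Dnmt3l*. The genes were taken by symbol, and all 6 were found among the 15074 genes used from the deposited table. RNA-seq covered 9 libraries of the J1 male ESC background. WT cells were unmodified J1 ESCs, 1KO cells were *Dnmt1*-/-, and 1KO+1CI cells were *Dnmt1*-/- and carried a transgene for DNMT1 C1229S, a catalytically inactive DNMT1. Each line was sequenced at day 0, as ESCs, and at days 2 and 4 of a differentiation protocol intended to give epiblast-like cells. Each of the 9 combinations has 1 library, so no value has an error from replicates, and p-values given below rest on the spread between libraries of different lines and days. The transgene was driven by the CAG promoter and linked by an IRES to a zeocin resistance gene, and each genotype is represented by 1 line. ESCs were grown with LIF on mouse embryonic fibroblasts, and before differentiation these feeders were depleted by letting them attach to gelatin. Differentiating cells formed embryoid bodies for 1 day and were then kept attached, without LIF. Levels are FPKM, the reads per 1000 bases of transcript and per 1000000 reads of the library. Levels of different genes can thus be compared within a library, apart from the averaging over transcripts described below. Sets of 3 values are given in the order WT, 1KO, 1KO+1CI, or day 0, day 2, day 4, as named beside them.

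The 6 genes act in 2 connected steps. UHRF1 binds hemimethylated CpG sites behind the replication fork and ubiquitinates histone H3, which recruits DNMT1 to copy methylation to the new strand. UHRF2 has the same domains but does not replace UHRF1 in maintenance. DNMT3A and DNMT3B methylate unmodified CpG sites, and DNMT3L, which has no catalytic activity, binds both and promotes their action. ESCs are known for surviving the loss of DNMT1, and de novo enzymes are known to be induced when naive cells move towards the epiblast state.

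The substitution that inactivates the transgene product lies in the catalytic domain of DNMT1. In the GENCODE M21 transcript of 1620 codons, codon 1229 reads TGC, which encodes cysteine, and lies in exon 32 of 39 at chr9:20911813-20911815 (GRCm38, minus strand). The reference around it is shown because the transgene, which adds to every 1KO+1CI value of *Dnmt1* given here, differs from WT in the residue this coding exon encodes, and codon 1229 is in capitals.

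*Dnmt1* codon 1229 and 30 bases on each side: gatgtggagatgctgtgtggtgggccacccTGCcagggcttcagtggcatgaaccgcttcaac

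The start regions of *Dnmt3l* and *Dnmt3b* are shown because *Dnmt3l* differed most with genotype after *Dnmt1*, because *Dnmt3b* had the largest day 4 to day 0 ratio of the 6 genes, and because CpG sites are the substrate of the enzymes. Both run from 250 bases before to 50 bases after an annotated start, are read 5′ to 3′ on the plus strand from RefSeq (GRCm38.p6), and have each CG in capitals. CG reads the same on both strands and cannot overlap itself. The *Dnmt3l* window at chr10:78042037-78042336 holds 6 CG and the *Dnmt3b* window at chr2:153649199-153649498 holds 30.

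Dnmt3l: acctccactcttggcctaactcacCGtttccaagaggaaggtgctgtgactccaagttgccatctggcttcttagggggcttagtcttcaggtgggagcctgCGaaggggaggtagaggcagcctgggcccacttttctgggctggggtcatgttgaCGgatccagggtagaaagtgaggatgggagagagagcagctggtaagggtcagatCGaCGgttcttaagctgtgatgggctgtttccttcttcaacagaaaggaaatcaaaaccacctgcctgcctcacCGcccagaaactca
Dnmt3b: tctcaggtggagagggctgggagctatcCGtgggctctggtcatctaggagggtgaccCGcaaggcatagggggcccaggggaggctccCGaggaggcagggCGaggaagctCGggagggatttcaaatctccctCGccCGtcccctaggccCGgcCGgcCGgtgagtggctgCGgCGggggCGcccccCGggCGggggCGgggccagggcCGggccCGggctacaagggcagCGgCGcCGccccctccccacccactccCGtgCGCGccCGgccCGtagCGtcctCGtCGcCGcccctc

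*Dnmt3l* has 3 annotated start windows, with 6, 4 and 3 CG, and was the only gene of the 6 without a window of more than 20. Among 32851 windows of the same length, 94.6% hold at least 1 CG, the median is 7 and the upper quartile is 20. *Dnmt3a* has windows with 46, 47 and 18, *Uhrf1* with 12 and 33, *Uhrf2* has 1 window with 28, and *Dnmt1* has windows with 2, 12 and 33. These counts describe the reference and not methylation in these cells, which was not analysed here. In GENCODE M21 (GRCm38) the genes lie at chr17:56303321-56323486 (*Uhrf1*), chr19:30030513-30093722 (*Uhrf2*), chr12:3806007-3914443 (*Dnmt3a*), chr2:153649450-153687730 (*Dnmt3b*) and chr10:78041947-78063622 (*Dnmt3l*), all on the plus strand. *Dnmt3a* and *Dnmt3b* overlap antisense transcripts, *Dnmt3aos* and *Dnmt3bos*, and *Dnmt1* overlaps *Mir7081*, and without a stated strand setting the reads of antisense partners cannot be told apart.

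The reads per library, recovered from the steps in the values, were about 20125000 to 27990000, so that each gene rests on at least about 1160 reads (*Uhrf2*, lowest library) and counting error is small beside most differences given. All 12 pluripotency genes listed, among them *Pou5f1* at 632 to 808 FPKM at day 0, had at least 1 FPKM in the day 0 libraries, and also in those of day 2, so that this does not tell the days apart. The summed level of 11 epiblast genes lay between 119 and 132 FPKM at day 0 and between 454 and 582 at day 4. At day 2 it was 163 in WT, 347 in 1KO and 391 for 1KO+1CI, and in WT 5 of the 11 genes were at least 0.5 higher and 3 lower than at day 0 (median 0.11). Over all genes, 11.3% were higher and 14.7% lower in WT at day 2 than at day 0. Feeder fibroblast genes were highest at day 0, and unequal there. Their summed FPKM over 12 genes measured of 14 listed was, in the order of the lines, 152, 307 and 368 at day 0, then 21.3, 35.0 and 52.1 at day 2, then 20.9, 26.4 and 51.6 at day 4. No gene in the deposited table had a value of 0, so that being above 0 tells nothing about these 12. At day 0 none of the 12 was under 1 FPKM.

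The level of *Dnmt1* checks the genotypes. Over days 0, 2 and 4, WT cells had 74.0, 80.4 and 48.5 FPKM of *Dnmt1*, 1KO cells had 13.7, 17.4 and 12.3, and 1KO+1CI cells had 315, 129 and 158. The lines did not overlap, with all 3 1KO libraries below all 3 WT libraries and all 3 1KO+1CI libraries above them. The 1KO level was 18.4%, 21.6% and 25.3% of WT at days 0, 2 and 4, and was not near 0. These are levels of message, and the paper describes the 1KO ESCs as wholly without DNMT1 protein. FPKM per symbol averages over 5 annotated transcripts and does not show which part of the message is left in 1KO cells, nor does it separate the transgene from the disrupted gene in 1KO+1CI cells. The transgene line exceeded WT 4.25-fold, 1.60-fold and 3.25-fold, and exceeded 1KO 23.0-fold, 7.41-fold and 12.9-fold, on the same days. Its level was not constant, and from day 0 to day 2 the difference was -1.28 on the log2(FPKM + 1) scale, while WT and 1KO cells had 0.12 and 0.33.

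Since no condition has a second library, the lines were tested in 1 limma fit over all 9 libraries, with line and day as additive terms, 4 residual degrees of freedom and Benjamini-Hochberg adjustment over all 15074 genes. Any change of the line effect with the day is counted as error in this fit. Averaged over days, *Dnmt1* had a 1KO to WT difference of -2.13 on the log2(FPKM + 1) scale (SE 0.27, limma adjusted p = 0.0161). It was the only one of the 6 genes to pass, where 1.15% of all genes passed as lower and 0.71% as higher. The difference of 1KO+1CI from 1KO was 3.61 (SE 0.27, limma adjusted p = 0.0143). *Dnmt1* was the only gene of the 15074 to pass in that comparison (0.00663%, with 0.0% in the other direction). The gene with the next smallest p, *Mir3076*, had a difference of -0.95 and a limma adjusted p of 0.204. In that comparison 564 genes had an unadjusted limma p under 0.05. This is fewer than a share of 0.05 of the 15074 genes, so that they are no excess. Against WT the 1KO+1CI line was higher in *Dnmt1* by 1.48 (SE 0.27, limma adjusted p = 0.0279), where 1.8% of all genes passed as higher and 2.14% as lower. These 3 calls depend on single libraries, and with only the libraries of the 2 lines compared, the limma adjusted p was 0.0555 for 1KO+1CI against 1KO and 0.0963 for 1KO+1CI against WT. For 1KO against WT the limma adjusted p was up to 0.0964 without 1KO of day 0, 2 or 4 or WT of day 2, and the difference lay between -2.33 and -1.87. For 1KO+1CI against 1KO it was up to 0.206 without any 1KO library or without WT or 1KO+1CI of day 4, and the difference lay between 3.26 and 4.01. For 1KO+1CI against WT only the fits without 1KO of day 0 or 1KO+1CI of day 2 passed, with limma adjusted p up to 0.109 in the others and differences between 1.12 and 1.87.

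**Figure D1:**
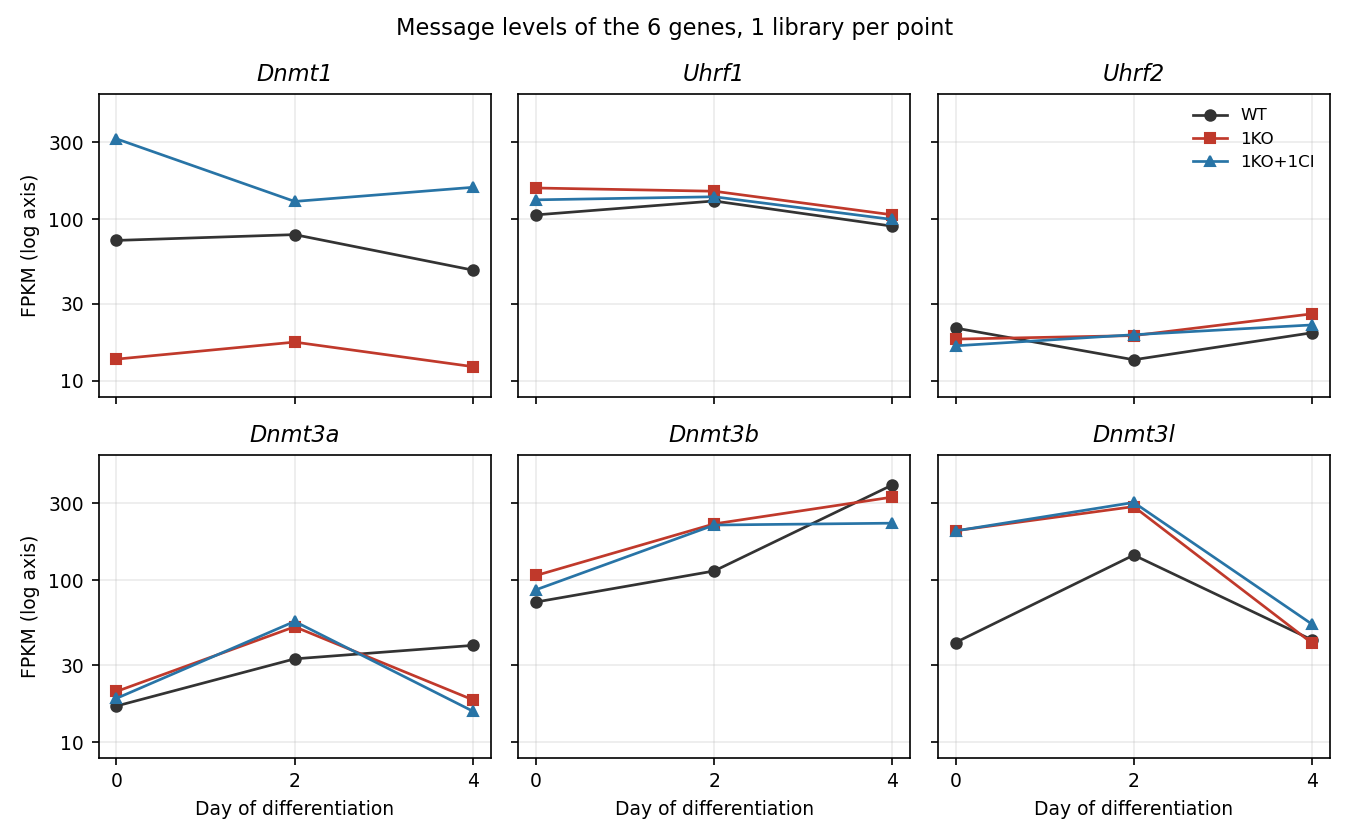
FPKM on a log axis against day of differentiation for the 6 genes in WT, 1KO and 1KO+1CI cells, each point 1 library without replicate error. *Dnmt1* separates the lines at every day, *Dnmt3l* separates WT from both *Dnmt1*-/- lines at days 0 and 2 and has 41.0 to 53.7 FPKM in all 3 at day 4, and *Uhrf1* and *Uhrf2* stay within a 1.72-fold and a 1.92-fold range.

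*Uhrf1*, which brings DNMT1 to replicated DNA, was among the more abundant messages throughout, between the 94.98 and 97.42 percentiles of its library. Over days 0, 2 and 4, its FPKM was 106.5, 130 and 90.6 in WT, 156, 149 and 107 in 1KO, and 132, 138 and 99.7 in 1KO+1CI cells. On each day the order was 1KO, 1KO+1CI, WT from high to low, but the lines overlap across days, and the differences were small. On the log2(FPKM + 1) scale the 1KO library exceeded WT by 0.55, 0.20 and 0.23 on days 0, 2 and 4, and 1KO+1CI differed from 1KO by -0.24, -0.11 and -0.09. In the fit, no line effect on *Uhrf1* passed (1KO against WT 0.33, SE 0.09, limma adjusted p = 0.140). No 1KO+1CI effect was larger (against WT 0.18, SE 0.09, limma adjusted p = 0.326). The ratio of *Uhrf1* to *Dnmt1* FPKM was 8.57 to 11.4 in 1KO cells, beside 1.44 to 1.87 in WT and 0.419 to 1.07 in 1KO+1CI cells.

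*Uhrf2*, a RING finger relative of *Uhrf1*, was less abundant in every library, with 21.3, 13.5 and 19.9 FPKM in WT cells over days 0, 2 and 4, 18.2, 19.1 and 26.0 in 1KO cells, and 16.5, 19.3 and 22.2 in 1KO+1CI cells. WT was the highest line at day 0 and the lowest at days 2 and 4. On the log2(FPKM + 1) scale the 1KO differences from WT were -0.22, 0.47 and 0.37, and those between 1KO+1CI and 1KO lay between -0.22 and 0.02. No line or day effect on *Uhrf2* passed in the fit, the smallest limma adjusted p being 0.1199 for day 4 against day 2 (0.38, SE 0.16). Without WT of day 0 it passed for day 4 against day 2 (0.0259) and against day 0 (0.0195). *Uhrf1* exceeded *Uhrf2* 4.10-fold to 9.60-fold, most in the WT library of day 2 and least in the 1KO library of day 4.

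*Dnmt3l*, the cofactor without catalytic activity, differed most between the genotypes after *Dnmt1*. In WT, 1KO and 1KO+1CI cells it had 41.3, 203 and 203 FPKM at day 0, 144, 286 and 304 at day 2, and 42.9, 41.0 and 53.7 at day 4. WT was far below both *Dnmt1*-/- lines at day 0, below them at day 2, and at day 4 lay between them. The 1KO library of day 0 exceeded WT 4.91-fold (95% counting interval 4.63 to 5.22, which covers counting error only), a log2(FPKM + 1) difference of 2.27 that lay at the 99.91 percentile of all genes. At day 2 the ratio was 1.995 (1.93 to 2.07) and at day 4 it was 0.955 (0.885 to 1.03), within counting error of 1. With or without the inactive DNMT1 the levels were close, with a 1KO+1CI to 1KO ratio of 0.998 (0.967 to 1.03) at day 0, 1.06 (1.03 to 1.09) at day 2 and 1.31 (1.22 to 1.41) at day 4. The day 0 log2 difference between these lines, -0.0030, was 0.064 and 0.032 under the other scalings tried.

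Averaged over days, the *Dnmt3l* difference did not pass in the fit. It was 1.07 for 1KO against WT (SE 0.37, limma adjusted p = 0.230) and 1.22 for 1KO+1CI against WT (SE 0.37, limma adjusted p = 0.115). Without the WT library of day 4 the values were 1.57 and 1.73, with limma adjusted p of 0.0441 and 0.0255. At day 0 the feeder fibroblast genes were also lower in WT, with 10 of 12 higher by at least 0.5 in 1KO against WT and a median difference of 0.90 beside -0.01 over all genes. Of the 12 pluripotency genes, 5 were higher and none lower in 1KO against WT at day 0 (median 0.34), and 6 were higher and 1 lower in 1KO+1CI against WT (median 0.49). Over all genes at day 0, 10.0% were higher and 11.1% lower in 1KO against WT. In 1KO+1CI against WT these shares were 9.68% and 12.5%. At day 2, when the feeder sums were 21.3 to 52.1 FPKM, *Dnmt3l* was 1.995-fold and 2.12-fold as high in 1KO and 1KO+1CI as in WT cells. The part of feeders and of the pluripotent state in the day 0 values was not tested, and in bulk RNA fewer cells with a message and less message per cell cannot be told apart. *Dnmt3l* overlaps *Aire*, a transcriptional regulator on the opposite strand, and the strand setting of the counting is not given in the sources used here. *Aire* had 0.468 to 4.92 FPKM over the 9 libraries, and *Dnmt3l* exceeded it 16.8-fold to 115-fold.

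*Dnmt3a*, a de novo methyltransferase, was higher in both *Dnmt1*-/- lines than in WT at days 0 and 2 and lower at day 4. Over days 0, 2 and 4, it had 16.7, 32.8 and 39.7 FPKM in WT cells, 20.6, 51.8 and 18.3 in 1KO cells, and 18.7, 55.8 and 15.5 in 1KO+1CI cells. WT was highest at day 4, whereas both *Dnmt1*-/- lines were highest at day 2 and at day 4 were below their day 0 level. The 1KO difference from WT on the log2(FPKM + 1) scale was 0.28, 0.64 and -1.08, and the 1KO+1CI difference was 0.15, 0.75 and -1.30. At day 4, 1KO had 46.1% and 1KO+1CI 39.2% of the WT level. This turn cannot be tested with 1 library per condition, and the additive fit, which averages over the days, gave a 1KO effect of -0.05 (SE 0.34, limma adjusted p = 0.967).

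*Dnmt3b*, the de novo enzyme known for its high level in the epiblast, had 73.6, 115 and 390 FPKM over days 0, 2 and 4 in WT cells, 107, 224 and 328 in 1KO cells, and 87.6, 220 and 226 in 1KO+1CI cells. Both *Dnmt1*-/- lines were above WT at days 0 and 2 and below it at day 4. The 1KO differences from WT on the log2(FPKM + 1) scale were 0.54, 0.96 and -0.25, and the 1KO+1CI differences were 0.25, 0.94 and -0.78. The ratio of day 4 to day 2, in the order of the lines, was 3.41, 1.46 and 1.03. With each library rescaled to a common sum, the day 0 difference of 1KO from WT was 0.49, under the 0.5 used here for counting. No line effect on *Dnmt3b* passed in the fit, the largest being 0.42 for 1KO against WT (SE 0.27, limma adjusted p = 0.528).

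**Figure D2:**
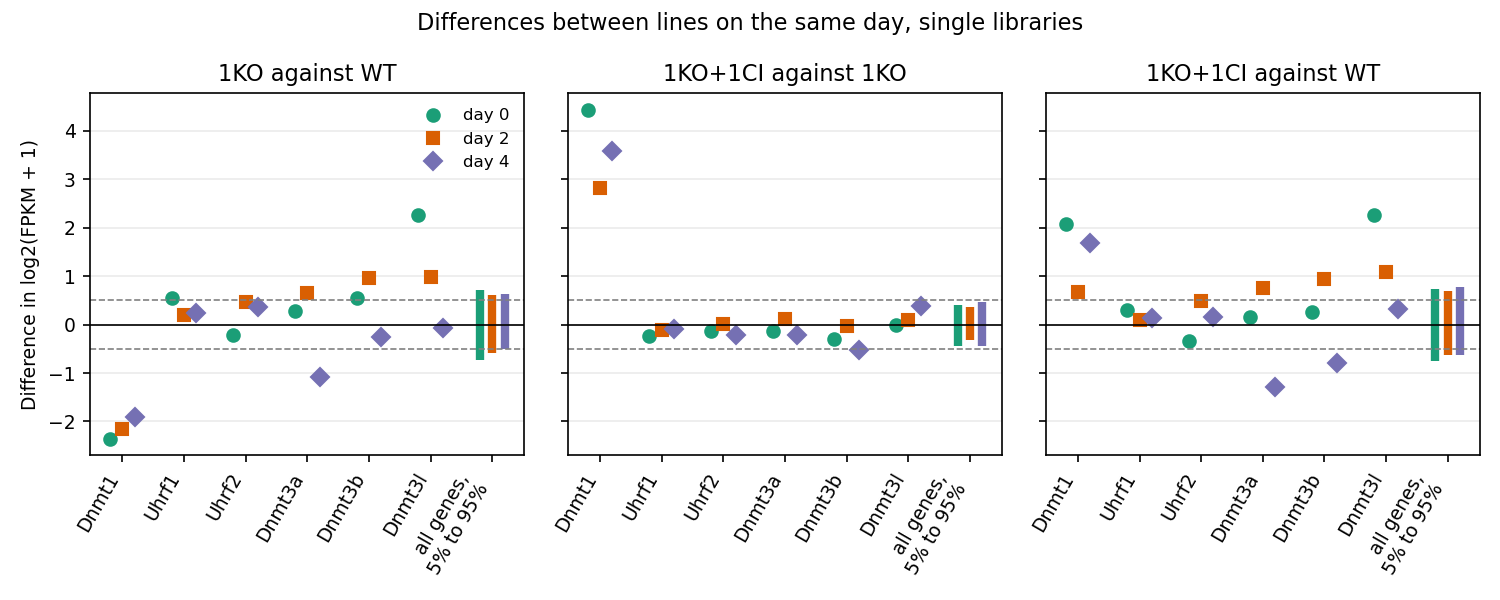
Differences in log2(FPKM + 1) of the 6 genes between lines on the same day, from single libraries, with bars for the central 90% of all 15074 genes and dashed lines at 0.5 and -0.5. *Dnmt1* lies outside the bars in every comparison but 1KO+1CI against WT at day 2, where it is at 0.68, and the other 5 genes lie near 0 between 1KO+1CI and 1KO except *Dnmt3b* at day 4, at -0.53, and *Dnmt3l* at day 4, at 0.38.

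Differences of at least 0.5 on the log2(FPKM + 1) scale, about 1.41-fold for well expressed genes, were counted in each pair of libraries, with no test. Between 1KO and WT at day 0, 3 of the 6 genes were higher (*Uhrf1*, *Dnmt3b* and *Dnmt3l*, against 10.0% of all genes) and *Dnmt1* was lower (11.1%). At day 2, *Dnmt3a*, *Dnmt3b* and *Dnmt3l* were higher (7.09%) and *Dnmt1* was lower (7.18%). At day 4 none was higher (7.61%), and *Dnmt1* and *Dnmt3a* were lower (5.32%). The median difference of the 6 genes was 0.41, 0.56 and -0.16 on the 3 days, beside medians over all genes between -0.01 and 0.00.

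Between 1KO+1CI and 1KO cells, *Dnmt1* was the only one of the 6 genes counted as higher, on each of the 3 days, against 2.43%, 2.32% and 4.36% of all genes. None was lower at days 0 and 2 (3.62% and 1.67%). *Dnmt3b* was counted as lower at day 4 (3.44%), with 69.0% of the 1KO level (95% counting interval of the ratio 0.677 to 0.703), but its difference of -0.53 became -0.48 when each library was rescaled to a common sum. The other 4 genes differed between these lines by -0.24 to 0.38 over the 3 days. The comparison shares the 1KO libraries with that of 1KO against WT.

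Between 1KO+1CI and WT cells, *Dnmt1* and *Dnmt3l* were higher at day 0 (9.68%) with none lower (12.5%). *Dnmt1*, *Dnmt3a*, *Dnmt3b* and *Dnmt3l* were higher at day 2 (9.21%) with none lower (7.91%). At day 4 *Dnmt1* was higher (10.7%), and *Dnmt3a* and *Dnmt3b* were lower (8.33%). *Uhrf1* and *Uhrf2* were counted in neither direction on any day, with *Uhrf2* at 0.48 on day 2.

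The effect of the day was tested in the same fit, averaged over the 3 lines. From day 0 to day 2, *Dnmt3a* rose by 1.25 (SE 0.34, limma adjusted p = 0.0440) and *Dnmt3b* by 1.00 (SE 0.27, limma adjusted p = 0.0418), against 7.34% of all genes that rose and 8.11% that fell. Every line took part, with single-library differences of 0.93 to 1.53 for *Dnmt3a* and 0.63 to 1.32 for *Dnmt3b*. Both calls were lost when any 1 of the day 0 libraries, 1KO or 1KO+1CI of day 2, or 1KO of day 4 was left out, with limma adjusted p up to 0.182 for *Dnmt3a* and 0.172 for *Dnmt3b*, and also when no variance trend was fitted (0.0552 and 0.0538). *Dnmt3l* was also higher at day 2 in each line, by 1.77, 0.49 and 0.58 in the order of the lines, but the mean of 0.95 (SE 0.37) did not pass (limma adjusted p = 0.121, and 0.0351 without WT of day 4). Counted by single libraries, *Dnmt3a*, *Dnmt3b* and *Dnmt3l* were at least 0.5 higher in WT (11.3% of all genes) and in 1KO+1CI cells (11.5%), and *Dnmt3a* and *Dnmt3b* in 1KO cells (9.49%). *Uhrf2* was at least 0.5 lower in WT (14.7%), none in 1KO (11.1%) and *Dnmt1* in 1KO+1CI cells (10.6%).

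From day 2 to day 4, *Dnmt3l* had the largest effect of the 6 genes. It fell by 2.32 in the fit (SE 0.37, limma adjusted p = 0.00624), against 11.7% of all genes that fell and 11.2% that rose. The single-library differences, in the order of the lines, were -1.72, -2.77 and -2.48, so that 29.9%, 14.3% and 17.7% of the day 2 level was left. *Uhrf1* fell by 0.49 (SE 0.09, limma adjusted p = 0.01003), with differences of -0.51, -0.48 and -0.46 that were nearly the same in the 3 lines. Without the 1KO library of day 4, the adjusted p of *Uhrf1* was 0.0621, while *Dnmt3l* passed with each of the 9 libraries left out in turn (adjusted p up to 0.0381). *Dnmt3b* with 0.78 and *Dnmt3a* with -0.99 did not pass (limma adjusted p = 0.0695 and 0.0703), and in both the lines differed widely, from 0.04 to 1.76 for *Dnmt3b* and from -1.78 to 0.27 for *Dnmt3a*. Both passed without 1 of 2 libraries, *Dnmt3a* without WT of day 2 or 4 (adjusted p down to 0.00185) and *Dnmt3b* without 1KO+1CI of day 2 or 4 (down to 0.0412), and *Dnmt3a* also under TPM scaling (0.0424). Counted by single libraries, *Uhrf2* and *Dnmt3b* were higher in WT (14.0%), *Dnmt3b* in 1KO (14.1%) and none in 1KO+1CI cells (12.1%). *Dnmt1*, *Uhrf1* and *Dnmt3l* were lower in WT (14.4%), and *Dnmt3a* and *Dnmt3l* in 1KO (12.7%) and in 1KO+1CI cells (11.4%).

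From day 0 to day 4, *Dnmt3b* rose by 1.78 (SE 0.27, limma adjusted p = 0.00351, 11.3% of all genes) and passed with each library left out in turn, with adjusted p up to 0.0237. Its single-library ratios were 5.30, 3.05 and 2.58 in the order of the lines. *Dnmt3l* fell by 1.37 (SE 0.37, limma adjusted p = 0.0319) and *Uhrf1* by 0.39 (SE 0.09, limma adjusted p = 0.0195), among 12.3% of all genes that fell. For *Dnmt3l* the lines behind this average differed, with ratios of day 4 to day 0 of 1.04 (WT), 0.202 (1KO) and 0.265 (1KO+1CI). Leaving out 1KO or 1KO+1CI of day 0 or of day 4 ended both calls, and for *Dnmt3l* so did leaving out 1KO of day 2 (adjusted p up to 0.149 for *Dnmt3l* and 0.0942 for *Uhrf1*), as did fitting the day 0 and day 4 libraries alone (0.0808 and 0.0668). *Dnmt1* and *Uhrf2* passed in no comparison of days in the fit to all libraries. *Uhrf2* passed as higher at day 4 without WT of day 0, as given above, and *Dnmt1* passed without 1KO+1CI of day 2 as lower at day 4 than at day 2 (adjusted p = 0.0468) and than at day 0 (0.0408). Counted by single libraries, *Dnmt3a* and *Dnmt3b* were higher in WT (11.0%), and *Dnmt3b* in 1KO (14.5%) and in 1KO+1CI cells (16.2%). *Dnmt1* was lower in WT (14.7%), *Uhrf1* and *Dnmt3l* in 1KO (14.1%), and *Dnmt1* and *Dnmt3l* in 1KO+1CI cells (14.3%).

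**Figure D3:**
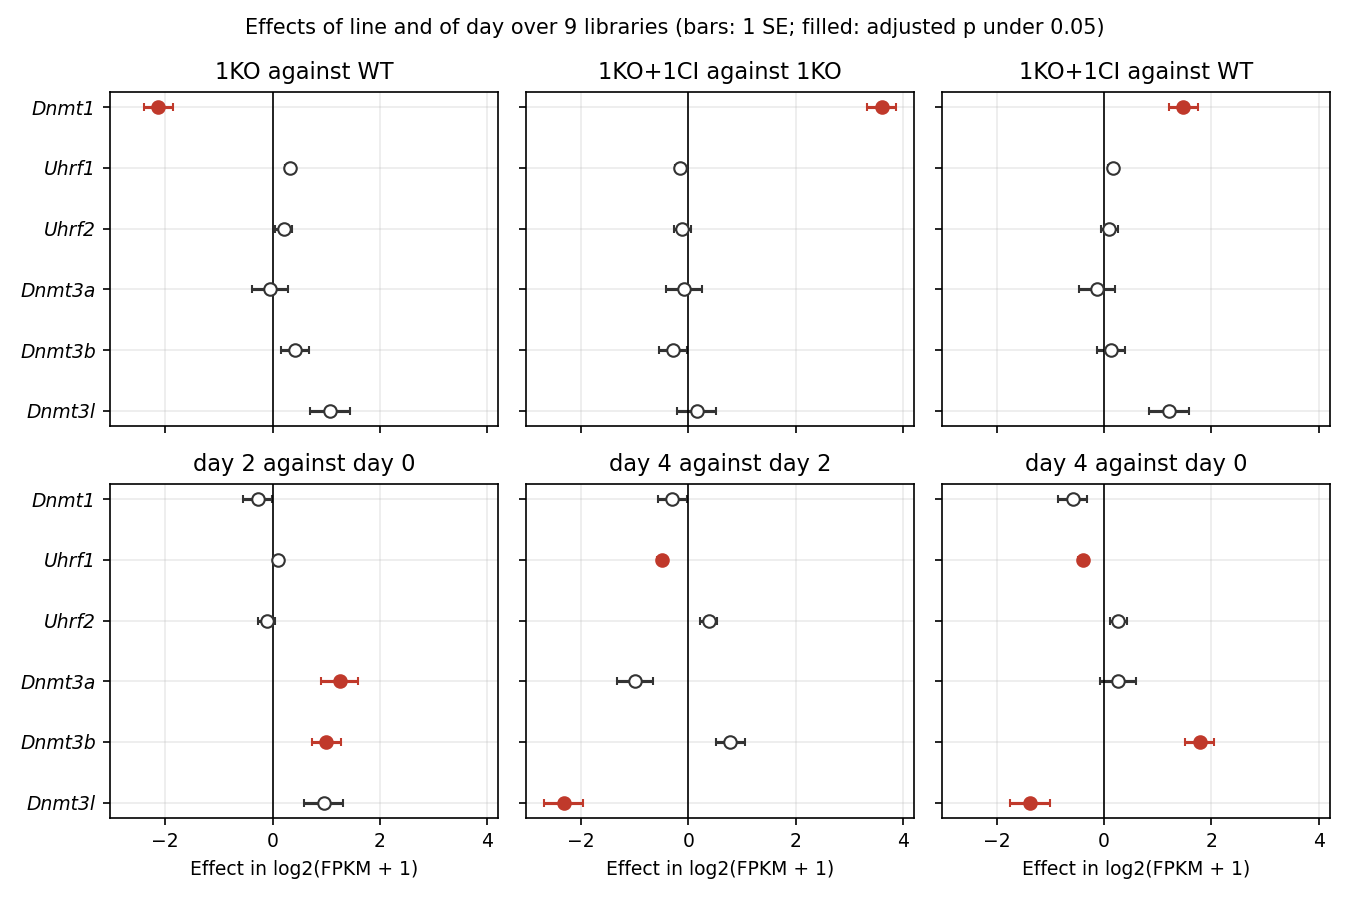
Effects of line (upper row) and of day (lower row) on log2(FPKM + 1) of the 6 genes in the additive limma fit over 9 libraries, with bars of 1 SE and filled red points where the p adjusted over 15074 genes was under 0.05. Among the line effects *Dnmt1* alone is filled, and among the day effects *Dnmt3a* and *Dnmt3b* are filled for day 2 against day 0, *Uhrf1* and *Dnmt3l* for day 4 against day 2, and *Uhrf1*, *Dnmt3b* and *Dnmt3l* for day 4 against day 0.

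Since FPKM is per length, the make-up of the methyltransferase messages can be given within a library, with limits. The sums cover *Dnmt1*, *Dnmt3a*, *Dnmt3b* and *Dnmt3l* only. Of 3 other DNMT-family genes listed, 1 was measured, *Trdmt1*. Each value averages over the annotated transcripts of its symbol, 5 for *Dnmt1*, 3 for *Dnmt3a*, 9 for *Dnmt3b* and 6 for *Dnmt3l*. Sums, shares and ratios between genes therefore also depend on which of these transcripts are used. The summed level of *Dnmt1*, *Dnmt3a*, *Dnmt3b* and *Dnmt3l* in WT, 1KO and 1KO+1CI cells was 206, 345 and 624 FPKM at day 0, 371, 580 and 709 at day 2, and 521, 400 and 453 at day 4. In WT cells at day 0, *Dnmt1* and *Dnmt3b* made up 36.0% and 35.8% of the sum, with 20.1% of *Dnmt3l* and 8.14% of *Dnmt3a*. In 1KO cells of day 0, 58.9% was *Dnmt3l* and 3.96% *Dnmt1*, and in 1KO+1CI cells 50.4% was *Dnmt1* and 32.5% *Dnmt3l*. At day 4 *Dnmt3b* held the largest share in all 3 lines, with 74.8% (WT), 82.1% (1KO) and 49.9% (1KO+1CI). *Dnmt3a* was the smallest or second smallest share in each library, between 2.99% and 8.93%.

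With *Dnmt1* left out of the sum, the 2 *Dnmt1*-/- lines were alike at days 0 and 2. In the order of the lines, *Dnmt3l* then made up 31.4%, 61.3% and 65.6% at day 0, 49.4%, 51.0% and 52.4% at day 2, and 9.08%, 10.6% and 18.2% at day 4. The level of *Dnmt3l* over that of *Dnmt3a* and *Dnmt3b* together, in the order of the lines, was 0.458, 1.59 and 1.91 at day 0, lay between 0.975 and 1.101 at day 2, and was between 0.0999 and 0.222 at day 4. *Dnmt3b* exceeded *Dnmt3a* in every library, from 3.50-fold in WT cells at day 2 to 17.9-fold in 1KO cells at day 4. These are ratios of messages and not of proteins.

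**Figure D4:**
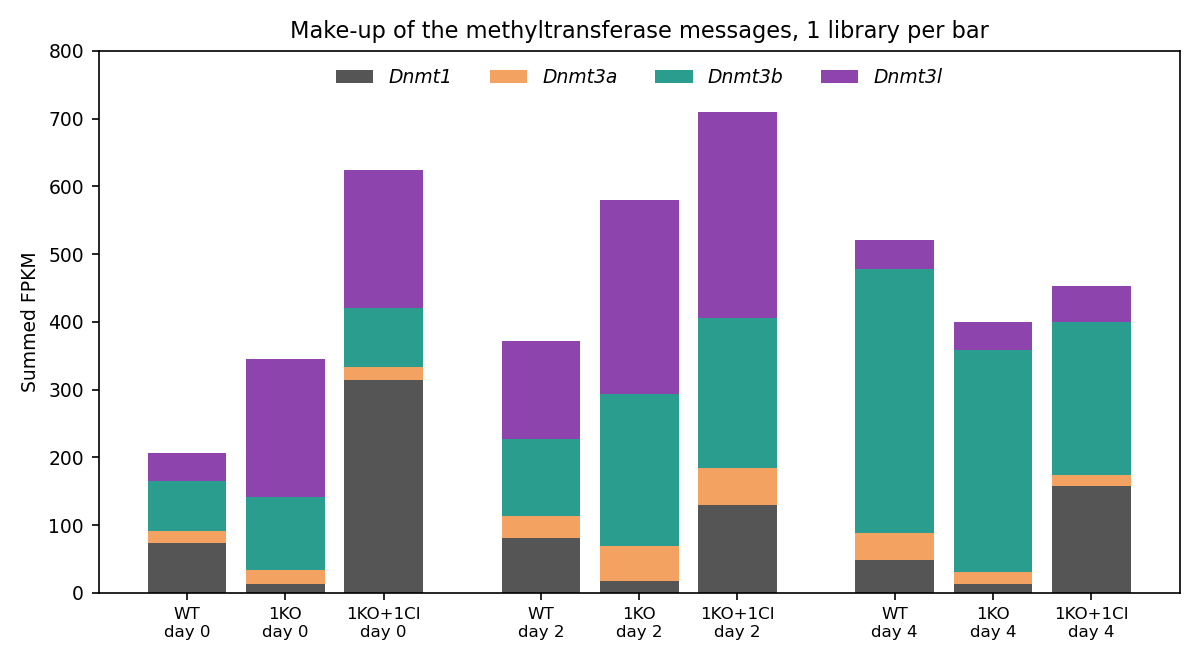
Summed FPKM of *Dnmt1*, *Dnmt3a*, *Dnmt3b* and *Dnmt3l* as stacked bars from 0, 1 bar per library, in groups of WT, 1KO and 1KO+1CI cells at days 0, 2 and 4. The *Dnmt3l* block is the largest in 1KO cells at day 0 and in all 3 lines at day 2, and makes up 8.24% to 11.9% of the bar at day 4, when *Dnmt3b* is the largest block of each bar.

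The patterns of the 6 genes over the 9 libraries were compared by Pearson's r of log2(FPKM + 1), as a description, since the libraries share lines and days. *Uhrf1* and *Dnmt3l* were the most alike pair (r = 0.92), both low at day 4 and both lowest in WT on days 0 and 2. The other 14 pairs lay between -0.59 (*Uhrf2* and *Dnmt3l*) and 0.54 (*Dnmt3a* and *Dnmt3l*). *Dnmt3a* and *Dnmt3b* had r = 0.40, and *Dnmt1*, whose values include the knockout and the transgene, had r between -0.34 and 0.08 with the others. Among 13287 genes with at least 1 FPKM in some library, the closest to *Dnmt3l* were *Gm10324* (0.99), *Rex2* (0.98) and *Sgk2* (0.98). The closest to *Uhrf1* were *Ankle2*, *Fam126a* and *Angptl4* (0.95 to 0.96), to *Uhrf2* *Bahcc1*, *Hpn* and *Mir5114* (0.96 to 0.99), to *Dnmt3a* *Gpn1*, *Mocs3* and *Platr10* (0.96 to 0.97), to *Dnmt3b* *Fam171b*, *Naa20* and *Timm21* (0.98 to 0.99), and to *Dnmt1* *Rab30*, *Armcx5* and *Tlk1* (0.87 to 0.91). These genes were picked as the highest among many over few libraries.

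The other genes of the pathway were counted in the same way. Of 12 measured partners of UHRF1 and DNMT1 at replication, 1 was higher by at least 0.5 in 1KO against WT on each day and none lower, against 10.0%, 7.09% and 7.61% of all genes higher, with medians of 0.12, 0.00 and -0.05. A share of 1 in 12 is near this background. This was *Dppa3*, whose protein is known to displace UHRF1 from chromatin, with 35.7, 89.7 and 90.3 FPKM in the order of the lines at day 0, 9.68, 20.8 and 20.8 at day 2, and 2.57, 5.75 and 5.295 at day 4. *Dppa3* is also one of the pluripotency genes listed. Like *Dnmt3l* at days 0 and 2 it was close in the *Dnmt1*-/- lines and lower in WT, with 1KO differences of 1.304, 1.03 and 0.92, and this held at day 4 as well. The lowest partners were *Cdca7* at day 0 (-0.24), *Ctcf* at day 2 (-0.24) and *Hells*, a chromatin remodeller needed for methylation of repeats, at day 4 (-0.38). *Pcna*, the clamp that holds DNMT1 at the fork, had 200 to 289 FPKM over the 9 libraries.

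Of 14 measured genes that recruit DNMT3 enzymes or act with them in repression, 2 were higher by at least 0.5 in 1KO against WT at day 0 (median of the list 0.05), 1 at day 2 (0.03) and 1 at day 4 (-0.08), and none was lower. The share of all genes was 10.0%, 7.09% and 7.61%, near that of the list. The highest at day 0 was *Zfp57*, which keeps imprints methylated, with 37.0, 92.7 and 93.6 FPKM in the order of the lines (difference 1.2995), beside *Trim28*, its corepressor, at 0.58. At days 2 and 4 the highest was *Nsd2*, a writer of H3K36 methylation, at 0.57 and 0.56. The lowest were *Smchd1* (-0.43), *Zfp57* (-0.32) and *Cbx1* (-0.37) at days 0, 2 and 4. Of 10 methyl-CpG readers none was higher, and *Zbtb38* was at least 0.5 lower at days 0 and 2 (-0.62 and -0.65). On these days 11.1% and 7.18% of all genes were lower, and 1 in 10 is near that. *Mbd3* was the highest reader at days 0 and 2 (0.46 and 0.25). Between 1KO+1CI and 1KO cells none of these 3 lists had a gene higher by 0.5, and those lower were *Pclaf* at day 0 (-0.52) and *Cdca7* at day 4 (-0.51) of the first list and *Zfp57* at day 2 (-0.55) of the second. Over all genes, 2.43%, 2.32% and 4.36% were higher and 3.62%, 1.67% and 3.44% lower on the 3 days. The few counts in these lists are near that background. *Trdmt1*, which despite its former name *Dnmt2* methylates tRNA, had 2.40 to 3.97 FPKM, and its difference between 1KO+1CI and 1KO was 0.55, 0.15 and 0.02 on days 0, 2 and 4.

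Of 15 genes for S-adenosylmethionine and one-carbon metabolism, *Mat2a*, which makes the methyl donor, had 76.1, 133 and 159 FPKM in the order of the lines at day 0 (1KO difference from WT 0.79) and *Ahcyl1* was lower (-0.52), with none counted in 1KO against WT at days 2 and 4. Of 18 S phase genes, with which *Uhrf1* and *Dnmt1* are known to be expressed, 1 was higher and 1 lower in 1KO at day 0, *Ccne1* at 1.02 and *Gins2* at -0.73, 1 was higher (*Ccne1*, 0.65) and 1 lower (*Mcm5*, -0.56) at day 2, and none was higher and 2 lower at day 4 (*Mcm5* at -0.77 and *Gins2* at -0.69). The medians of the list were 0.24, 0.11 and -0.15 at days 0, 2 and 4, and between 1KO+1CI and 1KO they were -0.16, -0.07 and -0.15. Of 12 genes of G2 and mitosis, 3 were lower in 1KO against WT at day 0 and 2 higher at day 2, with *Mki67* the lowest (-0.73) and *Aurka* the highest (0.54) of these. Over all genes in 1KO against WT, 10.0%, 7.09% and 7.61% were higher at days 0, 2 and 4, and 11.1%, 7.18% and 5.32% lower. A share of 1 in 15 or 1 in 18 is near this background.

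Between days more of these genes differed. From day 0 to day 4, 1 of the 12 replication partners was higher in each line, and 1, 2 and 4 were lower in the order of the lines, with *Dppa3* the lowest at -3.36, -3.75 and -3.86. Of the 14 DNMT3 partners 2, 3 and 3 were higher and 1, 4 and 2 lower, with *Zfp57* the lowest at -1.11, -2.48 and -2.35. Over the same interval 11.0%, 14.5% and 16.2% of all genes were higher and 14.7%, 14.1% and 14.3% lower. From day 0 to day 2, 7 of the 15 one-carbon genes were higher and 2 lower in WT (11.3% and 14.7% of all genes), and 4 were higher and none lower in each *Dnmt1*-/- line, with *Mthfd2*, a mitochondrial folate enzyme, the highest at 1.55, 1.14 and 1.42 in the order of the lines. Over all genes, 9.49% were higher and 11.1% lower in 1KO, and 11.5% and 10.6% in 1KO+1CI cells.

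Markers of the cell state differed beside the de novo genes. At day 2, when the 1KO library exceeded WT in *Dnmt3a* and *Dnmt3b*, 7 of 11 epiblast genes were at least 0.5 higher and none lower (median 1.103), with *Fgf5* the highest at 2.16 and *Cdh2* the lowest at -0.37, and 6 of 12 pluripotency genes were lower and 2 higher (median -0.46). Over all genes, 7.09% were higher and 7.18% lower in 1KO against WT at day 2. At day 4, when *Dnmt3a* in 1KO cells was below WT, 7 of 7 primitive streak genes measured, of 10 listed, were higher (median 1.29). The highest was *T* at 3.30 and the lowest *Lhx1* at 1.03. The summed level of the 7 was 15.6, 80.3 and 92.4 FPKM in the order of the lines. Of 11 epiblast genes 2 were then higher and 1 lower (median -0.09). Over all genes, 7.61% were higher and 5.32% lower in 1KO against WT at day 4. In the day 4 libraries in which *Dnmt3b* in 1KO+1CI cells was below 1KO, 7 of 12 primitive endoderm genes were higher and none lower (median 0.58, sums of 169 and 95.6 FPKM), 7 of 12 feeder fibroblast genes were higher (median 0.58) and 2 of 11 epiblast genes were lower (median -0.27). The endoderm sums rest mostly on *Lamb1*, *Col4a1* and *Col4a2*, with 62.7, 46.7 and 23.9 FPKM in 1KO+1CI and 41.9, 24.5 and 11.7 in 1KO. Of the 12 endoderm genes, 2 were under 1 FPKM in 1KO+1CI and 5 in 1KO. Between those libraries, 4.36% of all genes were higher and 3.44% lower. The part of these cell states in the levels of the 6 genes was not tested.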

How the data were processed

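Poly(A) RNA-seq of 9 libraries was analysed. The authors used Trim Galore for trimming, HISAT2 for mapping to mm10, SAMtools, and HOMER for counting and normalization, and deposited FPKM per gene. Tool versions, annotation release and strand setting: not given in the sources used here. Of 15095 entries, 1 named 0 and 20 dates were left out. No value was 0, and 15074 genes were used. The level of a gene was tested on log2(FPKM + 1).

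Single libraries were compared without a test, and a difference of 0.5 was counted. All 9 libraries were fitted with limma 3.58.1 (R 4.3.3; lmFit, and eBayes with a trend) with line and day as factors, and p-values were adjusted by Benjamini-Hochberg over 15074 genes. Depth was recovered from the steps in the FPKM values of 1139 to 1259 genes per library with 1 curated transcript and few reads. Of these values, 52.35% to 58.43% per library fell within 0.1 of a whole read. The depth was chosen by closeness to whole reads, so that this share is no independent check. On a score where 1 means whole reads throughout, the chosen depths had 0.459 to 0.538 and the next best 0.349 to 0.414. Whether 1 step is a read or a pair is not known, and if pairs were counted as 2 reads, the counting error is larger than given. Counting intervals are Clopper-Pearson intervals of 95%. Alternatives were pseudocounts of 0.1 and 0.01, rescaling to a common sum (TPM), median-ratio scaling, a minimum of 1 FPKM, no variance trend, 2 lines or 2 days alone, and each library left out. Named are the 6 genes, of other lists the highest and lowest gene of a comparison and partners with a difference of at least 1, and the 3 genes most alike in pattern. Members and lists were chosen with earlier results of these data known. *Pou5f1*, *Pcna*, *Trim28*, *Mir3076*, *Lamb1*, *Col4a1* and *Col4a2*, and *Gins2* at day 4, were named after their values were seen. Positions are from GENCODE M21 (GRCm38). The fit was run on simulated data that held no day effect and no line effect that changed with the day. That run therefore cannot show how the fit behaves where such changes enter the error. The depth search was checked against altered transcript lengths. Other steps used pandas 2.3.3, numpy 2.4.6, scipy 1.17.1 and matplotlib 3.10.9 under Python 3.11.15.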

Additional observations from a re-analysis of the deposited data

Results flagged for a closer look

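*Dnmt3a* differed from WT in opposite directions on different days. The difference of 1KO from WT in log2(FPKM + 1) was 0.28 at day 0 and 0.64 at day 2 but -1.08 at day 4, and that of 1KO+1CI was 0.15, 0.75 and -1.30. Both comparisons share the WT libraries. *Dnmt3b* did the same in 1KO+1CI against WT, with 0.25 at day 0, 0.94 at day 2 and -0.78 at day 4. Each value compares 2 libraries, and the difference between days was not tested, because a line-by-day term leaves no residual degrees of freedom.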

How the results depend on the processing

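No paired analysis was possible because the replicate number is 1 in every line and day, so that it marks no block beyond the day, which the fit already holds as a term beside the line. None of the single-library calls and none of the calls of the fit changed sign. Of 432 values, 108 single-library differences under 4 alternatives, 15 crossed 0.5 and 5 uncalled ones changed sign. Under TPM scaling, 0 of the 6 genes in place of 1, *Dnmt3b*, were at least 0.5 lower in 1KO+1CI against 1KO at day 4. In the fit with 2 lines only, 29 of all genes passed as higher and 1 as lower in 1KO against WT, in place of 107 and 174, 0 in place of 1 as higher in 1KO+1CI against 1KO, and 21 and 1 in place of 271 and 322 in 1KO+1CI against WT. With 2 days only, 1006 in place of 1702 were higher at day 4 than at day 0. These fits have fewer samples. Of the 10 calls among the 6 genes, 4 were kept under all 7 planned scalings and fits, and 2, *Dnmt3l* for day 4 against day 2 and *Dnmt3b* for day 4 against day 0, without each library in turn. Of the 26 effects not called, 25 were called under none of the planned settings, and 17 in none of the fits without 1 library.

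Leaving out 1 library gave 7 to 180 higher and 0 to 176 lower genes in 1KO against WT, 0 to 1 higher and 0 to 0 lower in 1KO+1CI against 1KO, 43 to 352 higher and 23 to 332 lower in 1KO+1CI against WT, 176 to 1423 higher and 269 to 1515 lower at day 2 against day 0, 460 to 2198 higher and 619 to 2179 lower at day 4 against day 2, and 508 to 2073 higher and 858 to 2054 lower at day 4 against day 0. No condition has a second library, the fit counts any line effect that changes with the day as error, and counting intervals leave out the spread between cultures.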
